A study of Mus musculus with 9 samples.

Results

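The small leucine-rich proteoglycans with decorin are 8 secreted matrix genes of the mouse: Dcn (decorin), Bgn (biglycan), Aspn (asporin), Lum (lumican), Fmod (fibromodulin), Omd (osteomodulin), Prelp and Ogn (osteoglycin). Each was represented by the transcript cluster annotated to its symbol with the highest mean, and each symbol had 1 cluster, so 8 of 22206 clusters entered, of which 19572 carry 1 gene symbol. The rule names the genes by symbol, and the set was chosen with earlier results of these data known. Counts set beside the share over all clusters therefore describe these genes and test nothing. The arrays were Affymetrix Clariom S arrays of total RNA from thymic lobes of C57BL/6 embryos at stage e13.5, with 3 arrays for each of 3 genotypes. The genotypes were wild type (wt), Foxn1933/1089 and Tbx1neo2/neo2, called Foxn1 mutant and Tbx1 mutant here. Foxn1 is a forkhead transcription factor of thymic epithelium, and by the title of the series its mutants are compound heterozygotes. Tbx1 is a T-box transcription factor of the pharyngeal region, and the mutants carry the neo2 allele on both copies. The labels do not say which cells each allele acts in, whether lobes of several embryos were pooled, or whether a genotype's arrays are separate embryos. The p-values therefore measure the spread between these samples, which may be technical.

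These proteins have a core of leucine-rich repeats that binds collagen fibrils and sets their spacing and diameter. Decorin and biglycan carry chondroitin or dermatan sulfate chains. Lumican, fibromodulin and osteomodulin can carry keratan sulfate, and asporin has a run of aspartate in place of a sugar chain. In embryonic organs they are made mostly by fibroblasts and other mesenchyme, which in the thymus forms the capsule and the tissue around the epithelium. Several of them also bind growth factors of the TGF-β family, and decorin binds receptor kinases.

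Values are deposited log2 signals, compared within a gene only, because probes of different genes differ in brightness. A gene was taken as above background where it exceeded the median of the 5222 negative-control features on that array, which lay between 4.27 and 4.94. The labelled tissue was checked with 7 thymic epithelial markers. Their mean log2 signal was 9.39 to 9.90 on 7 arrays, 6.07 on wild type replicate 1 and 6.27 on Foxn1 mutant replicate 2. On those 2 arrays Prss16 and Psmb11, which define cortical thymic epithelium, lay under the negative controls, and the 5 measured leukocyte markers averaged 4.68 and 4.38 against 7.07 to 8.60 elsewhere. Wild type replicate 1 also carried a neuronal marker mean of 12.22, against 5.58 to 6.12 on the other arrays. The main counts over the 8 genes are therefore given with all 9 arrays and without these 2. So are the differences of the 5 genes above background and nearness to Dcn. Other gene lists, chromosomal neighbours and the subtraction of mesenchyme markers are given with all 9 arrays only. Signal of the targeted genes overlapped between genotypes: Foxn1 was 7.78 to 10.35 in wild type, 8.73 to 9.67 in Foxn1 mutants and 8.88 to 10.04 in Tbx1 mutants, and Tbx1 lay between 4.07 and 5.85 on all arrays. The labels do not say whether these probes lie in altered sequence.

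In the mutant lobes the 8 genes read higher than in wild type on average, with decorin farthest from the wild type arrays. All 8 had a mean difference above 0 in the Foxn1 mutants (median log2 difference 0.85) and all 8 in the Tbx1 mutants (median 0.80). Of all clusters 52.4% and 52.2% were above 0, with medians of 0.02 and 0.01. Of the 8 genes, 5 had a mean above the negative controls, and Fmod, Omd and Prelp were under background on most arrays. Counts below include these 3. Omd in the Foxn1 mutants (0.02) and Prelp in the Tbx1 mutants (0.12) differed little from wild type. The wild type arrays were the same in both comparisons. Their sample titles start with Foxn, as those of the Foxn1 mutants do, while those of the Tbx1 mutants start with Tbx. What this prefix means is not given, and in the Tbx1 comparison it cannot be told apart from genotype. Parathyroid signal moved with genotype too: the mean of 3 measured markers (Pth, Casr, Chga) was 11.03 to 13.60 in wild type, 10.08 to 11.97 on the Foxn1 arrays and 5.37 to 5.92 on the Tbx1 arrays. Limma called 2 of these 3 markers lower in the Tbx1 mutants and 0 in the Foxn1 mutants, and their part in the proteoglycan values was not tested. None of the 8 passed limma at an adjusted p of 0.05 in either comparison or between the mutants, so none is called changed. Over all clusters limma called 0% in the Foxn1 mutants, 0.0135% in the Tbx1 mutants (3 clusters) and 0% between the mutants. At an unadjusted limma p below 0.05 stood 5 of the 8 in the Foxn1 mutants against 4.04% of clusters, 4 of 8 in the Tbx1 mutants against 3.79%, and 1 of 8 between the mutants against 2.98%. In the Foxn1 mutants the arrays of 4 of the 8 (Dcn, Lum, Fmod, Aspn) lay wholly above wild type, against 4.86% of clusters. In the Tbx1 mutants these were Dcn, Lum, Bgn and Fmod, against 5.18%. On all 6 mutant arrays together 3 of 8 (Dcn, Lum, Fmod) exceeded every wild type array, against 1.45% of clusters. Between the mutants 3 of the 8 were higher in the Foxn1 mutants, against 51.3% of clusters. Without the 2 arrays poor in thymic markers 7 of 8 were higher in each mutant, with Bgn the exception in the Foxn1 mutants and Prelp in the Tbx1 mutants, and medians were 0.58 and 0.88, with 50.7% and 48.5% of all clusters above 0. Then 4 of the 8 (Dcn, Lum, Ogn, Fmod) lay above wild type on all 5 remaining mutant arrays, against 5.08% of clusters. In the Foxn1 mutants alone 5 of the 8 lay wholly above wild type, against 17.8% of clusters. In the Tbx1 mutants alone 6 did, against 11.6%. Between the mutants 2 of the 8 were then higher in the Foxn1 mutants, against 51.3% of clusters. The median of the 8 was -0.53, against 0.01 for all clusters.

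**Figure D1:**
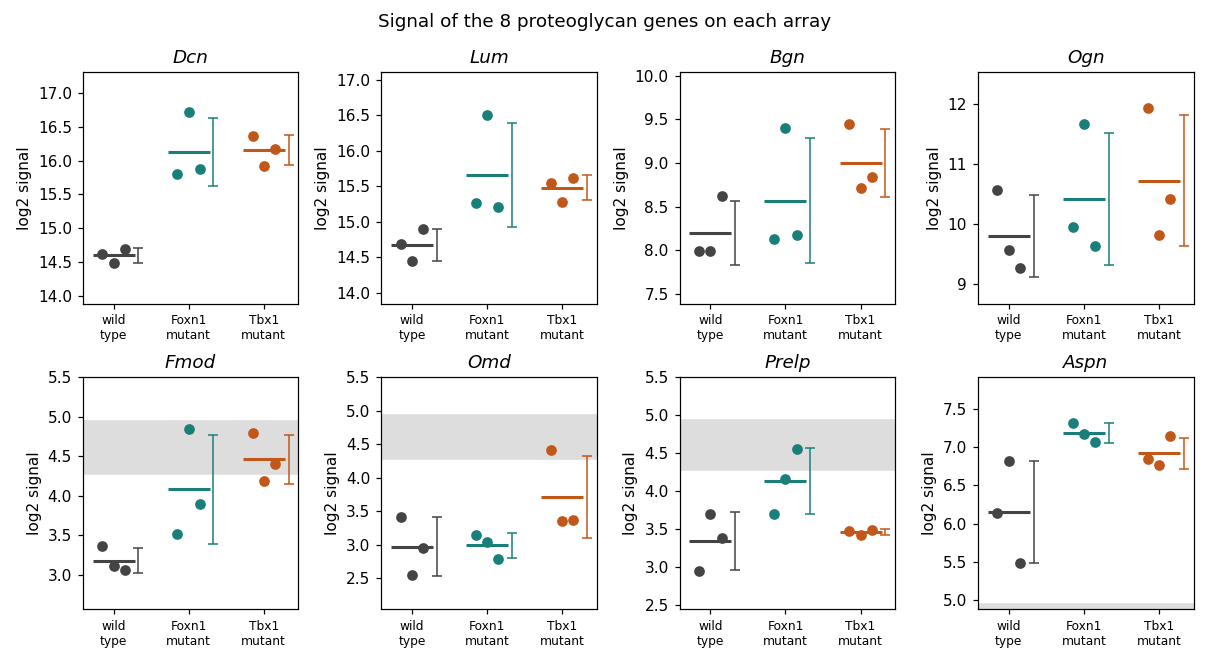
Log2 signal (vertical axis, one scale per gene) of the 8 proteoglycan genes on each array, by genotype. Points are arrays, thick bars are means and brackets are ± SD (n = 3); the grey band spans the negative-control medians of the 9 arrays, 4.27 to 4.94. The 6 mutant points of Dcn lie between 15.80 and 16.71, above the wild type points at 14.48 to 14.69, and Fmod, Omd and Prelp lie in or under the band.

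Decorin, which coats type I collagen fibrils and limits their lateral growth, read 14.61, 14.48 and 14.69 on the wild type arrays. On the Foxn1 mutant arrays it read 15.80, 16.71 and 15.87, and on the Tbx1 mutant arrays 16.37, 15.92 and 16.17. The groups did not overlap: the lowest mutant array lay 1.11 above the highest wild type array. The mean log2 difference was 1.53 ± 0.27 (SE, n = 3 per group; 2.90-fold, 95% interval 0.93 to 2.14) in the Foxn1 mutants and 1.56 ± 0.27 (2.95-fold, 0.96 to 2.16) in the Tbx1 mutants. Among 22206 clusters Dcn had the lowest p in the Foxn1 comparison and rank 22 in the Tbx1 comparison, yet limma's adjusted p was 1.00 and 0.213. Pooling both mutants against wild type, a comparison added after these values had been seen, gave 1.55 ± 0.23 with a limma adjusted p of 0.409, rank 4. In that pooled comparison all 8 genes were above 0, against 52.9% of clusters, and 4 of 8 had an unadjusted p below 0.05, against 4.3%, while limma called 0% after adjustment. The moderated F test of any genotype difference gave Dcn an adjusted p of 0.299 and called 0.00901% of clusters; 5 of the 8 genes had an unadjusted F test p below 0.05, against 3.22%. The mutants differed from each other by -0.03 (95% interval -0.63 to 0.58), so their order is not set by these arrays. In bulk lobes more cells of a type and more RNA per cell cannot be told apart.

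Dcn read higher in the mutants within each date code that holds the genotypes compared. The titles carry 3 date codes whose meaning is not given, here A, B and C. Within code A, with 1 array per genotype, Dcn was 2.02 higher in the Foxn1 mutant and 1.68 higher in the Tbx1 mutant. Within code B it was 1.36 higher in the Foxn1 mutants and within code C 1.44 higher in the Tbx1 mutants. Codes B and C hold 1 wild type array each. The Foxn1 mutant array of code A and the wild type array of code C are the 2 arrays poor in thymic markers. Without them only the code A value of the Tbx1 mutant and the code B value remain. Without the 2 arrays poor in thymic markers the limma differences were 1.25 and 1.57, and -0.32 for Foxn1 minus Tbx1 mutants. The Y-linked gene Uty read 7.56 to 8.84 in wild type and 2.47 to 3.71 in the Foxn1 mutants. In the Tbx1 mutants Uty read 8.47 on replicate 1 and 3.45 and 3.66 on the others. Dcn on Tbx1 mutant replicate 1 was 16.37. In the Foxn1 comparison the Uty level, a sign of male tissue, and the genotype cannot be told apart, for Dcn or any other gene. The mean of 4 measured red cell markers ran from 10.85 to 12.55 over the mutant arrays, and was 14.33, 11.63 and 14.62 over the wild type arrays. Dcn was 14.61, 14.48 and 14.69 on the same wild type arrays. The part of red cell content or of Y-linked differences in the Dcn values was not tested.

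Biglycan, the nearest relative of decorin and a carrier of the same kind of chain, read 7.99, 7.99 and 8.62 in wild type. The Foxn1 mutants read 8.13, 9.40 and 8.18, and the Tbx1 mutants 9.45, 8.72 and 8.84. The Tbx1 mutants cleared the wild type arrays, the Foxn1 mutants overlapped them, and 1 Foxn1 mutant array stood apart from the other 2. The log2 difference was 0.37 ± 0.38 (95% interval -0.47 to 1.21) in the Foxn1 mutants and 0.80 ± 0.38 (-0.04 to 1.65) in the Tbx1 mutants. Without Foxn1 mutant replicate 2 the Foxn1 difference was -0.04. Bgn lies on the X chromosome, and in the Foxn1 comparison its genotype difference cannot be told apart from that in Uty level.

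Asporin, a decorin relative that competes with it for collagen, read 6.14, 6.81 and 5.48 in wild type. The Foxn1 mutants read 7.32, 7.17 and 7.06, and the Tbx1 mutants 6.85, 6.77 and 7.15. The Foxn1 mutants lay above wild type, whereas Tbx1 mutant replicate 2 overlapped it, so 5 of 6 mutant arrays exceeded every wild type array. The mutants were tight (SD 0.13 and 0.20) and the wild type arrays spread (SD 0.67). The log2 difference was 1.04 ± 0.31 (95% interval 0.34 to 1.74) in the Foxn1 mutants and 0.78 ± 0.31 (0.07 to 1.48) in the Tbx1 mutants, both with a limma adjusted p of 1.00. Leaving out single arrays moved these between 0.71 and 1.37 and between 0.44 and 1.11. Wild type replicate 2, the highest wild type array for Aspn, had the highest Acta1 signal, a skeletal muscle actin (9.74 against 4.51 to 6.35 elsewhere); the part of muscle in this value was not tested.

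Lumican, which binds fibrillar collagen and was first known from the cornea, read 14.69, 14.45 and 14.90 in wild type. The Foxn1 mutants read 15.27, 16.51 and 15.21, and the Tbx1 mutants 15.55, 15.28 and 15.61. All 6 mutant arrays lay above wild type, by a gap of 0.31. The log2 difference was 0.98 ± 0.34 (1.98-fold, 95% interval 0.23 to 1.74) in the Foxn1 mutants and 0.80 ± 0.34 (1.74-fold, 0.04 to 1.56) in the Tbx1 mutants, with limma adjusted p of 1.00 for each. Foxn1 mutant replicate 2 set much of the first value, which was 0.56 without it. Within code A the differences were 1.61 and 0.65, within code B 0.79 and within code C 0.76. As for Dcn, the Foxn1 value of code A and the value of code C rest on the arrays poor in thymic markers. The mutants differed by 0.18 (-0.58 to 0.94), and this difference turned negative without Foxn1 mutant replicate 2 (-0.24).

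Fibromodulin, osteomodulin and Prelp, collagen binders best known from tendon, bone and cartilage, were not above background in most lobes. Fmod read 3.36, 3.11 and 3.06 in wild type, 3.51, 4.85 and 3.89 on the Foxn1 arrays and 4.79, 4.18 and 4.40 on the Tbx1 arrays. It exceeded the negative-control median on 2 arrays, Foxn1 mutant replicate 2 and Tbx1 mutant replicate 1. Although its 6 mutant arrays were above wild type, all wild type arrays were under background, so no fold is given. Omd read 2.54 to 3.42 in wild type, 2.78 to 3.15 on the Foxn1 arrays and 3.36 to 4.42 on the Tbx1 arrays, and exceeded background on 0 of 9 arrays. Prelp read 2.95 to 3.70, 3.69 to 4.56 and 3.42 to 3.49 in the same order and exceeded background on Foxn1 mutant replicate 3. Between the mutants the arrays did not overlap for Omd (lower in Foxn1 mutants) and Prelp (higher), against 3.91% and 5% of clusters. Markers of the tissues these genes are known from were mixed. Of 7 cartilage markers Sox9, Col9a1 and Col11a2 exceeded background on all 9 arrays, Cnmd on 2, Col2a1 and Acan on 1 each and Matn1 on 0. Of 4 measured bone markers Ibsp exceeded it on 6 arrays and Sp7, Alpl and Bglap on 0. Of 5 tendon markers Thbs4 exceeded it on 9, Egr1 on 8, Scx on 6, Tnmd on 4 and Mkx on 0.

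Osteoglycin, a small proteoglycan of vessel walls and connective tissue, varied more among arrays than any other of the 8, over a range of 2.65. It read 10.57, 9.57 and 9.27 in wild type, 9.95, 11.67 and 9.63 on the Foxn1 arrays and 11.93, 9.82 and 10.41 on the Tbx1 arrays. Both high arrays were single arrays within their genotypes, and the 3 groups overlapped. Both carry date code A, within which Ogn was 2.39 higher in the Foxn1 mutant and 2.65 higher in the Tbx1 mutant. Within code B it was 0.23 higher in the Foxn1 mutants. Within code C the Tbx1 mutants minus wild type gave -0.45. The log2 difference was 0.62 ± 0.65 (95% interval -0.85 to 2.08) in the Foxn1 mutants and 0.92 ± 0.65 (-0.55 to 2.39) in the Tbx1 mutants. Without Foxn1 mutant replicate 2 the first was -0.01, and without Tbx1 mutant replicate 1 the second was 0.31. The same 2 arrays had the highest mean of 6 smooth muscle and pericyte markers, 7.89 and 9.09 against 5.46 to 6.90 elsewhere. Tagln, an actin binder of smooth muscle, read 9.75 and 10.92 there and 6.56 to 7.67 on the other arrays. Cnn1 and Cspg4 were also highest on these arrays. For Acta2, wild type replicate 2 read 12.05, above the 11.39 of Foxn1 mutant replicate 2. For Rgs5, wild type replicate 1 read 7.08, above the 6.57 of Foxn1 mutant replicate 2. Myh11, the mature smooth muscle myosin, was under background on all 9. Foxn1 mutant replicate 2 also had the highest heart muscle mean (7.77 against 3.75 to 5.06). The part of these cells in the Ogn values was not tested. Across the 8 genes these 2 arrays held the highest value of 3 genes each, and the lowest value of every gene lay on a wild type array.

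Without the 2 arrays poor in thymic markers, the Foxn1 and Tbx1 differences were 0.57 and 0.81 for Lum, 1.05 and 0.77 for Aspn, 0.37 and 1.30 for Ogn and -0.15 and 0.70 for Bgn. Of these 4 genes Bgn in the Foxn1 mutants was the one value that turned its sign.

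**Figure D2:**
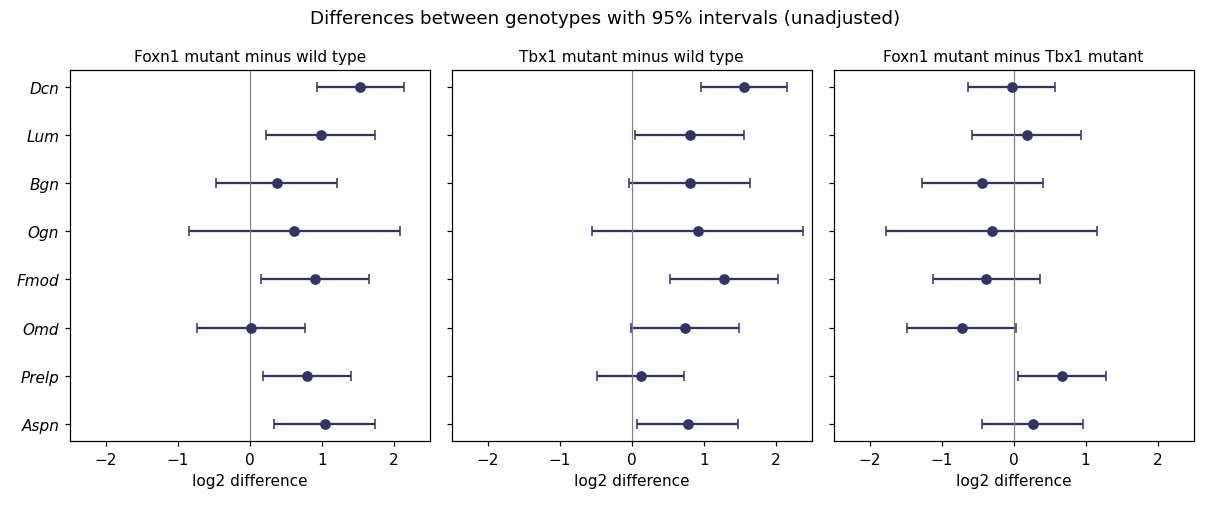
Log2 difference (horizontal axis) of each of the 8 genes for Foxn1 mutants minus wild type, Tbx1 mutants minus wild type and Foxn1 minus Tbx1 mutants. Points are limma estimates from 9 arrays and bars unadjusted 95% intervals. Dcn stands at 1.53 and 1.56 in the first panels and at -0.03 in the last, and no gene passed the adjusted test in any panel.

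A subtraction added after the values had been seen compared the genes with general mesenchyme signal on the same array. Of 8 listed markers 7 were measured: Pdgfrb, Col1a1, Col1a2, Twist1, Prrx1, Foxd1 and Meox1, of which Foxd1 was under background on all arrays and the other 6 above it on all. Their mean was 8.24 to 8.74 in wild type, 8.61 to 9.72 on the Foxn1 arrays and 8.69 to 9.13 on the Tbx1 arrays, so the ranges overlapped, with the highest mean on Foxn1 mutant replicate 2. Dcn minus this mean was 5.95 to 6.24 in wild type, 6.99 to 7.26 on the Foxn1 arrays and 7.04 to 7.35 on the Tbx1 arrays. The difference of means was 1.02 and 1.09, and the SD within each genotype was 0.14 to 0.16. Lum minus the marker mean was 6.16 to 6.24, 6.60 to 6.79 and 6.48 to 6.59 in the same order, a difference of 0.47 and 0.33. For both genes the 6 mutant arrays were above wild type relative to the mean. The share of all clusters that do so on this scale was not computed, so these counts only describe the genes. Bgn, Ogn and Aspn overlapped wild type on this scale, with 2, 1 and 1 mutant arrays above all wild type arrays. The markers themselves went both ways in the Tbx1 mutants, from -0.73 (Prrx1) to 1.43 (Col1a1), so the mean was also replaced by each of the 6 markers above background in turn. Dcn exceeded wild type on all 6 mutant arrays against 3 of the 6 markers (Twist1, Prrx1, Meox1), and Lum against 2 (Prrx1, Meox1). Against Col1a1 the Dcn difference was 0.67 in the Foxn1 mutants and 0.13 in the Tbx1 mutants, with 2 of 6 mutant arrays above wild type. For Lum against Col1a1 it was 0.12 and -0.62, with 0 of 6. The separation of both genes from wild type on this scale therefore depended on the marker subtracted.

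**Figure D3:**
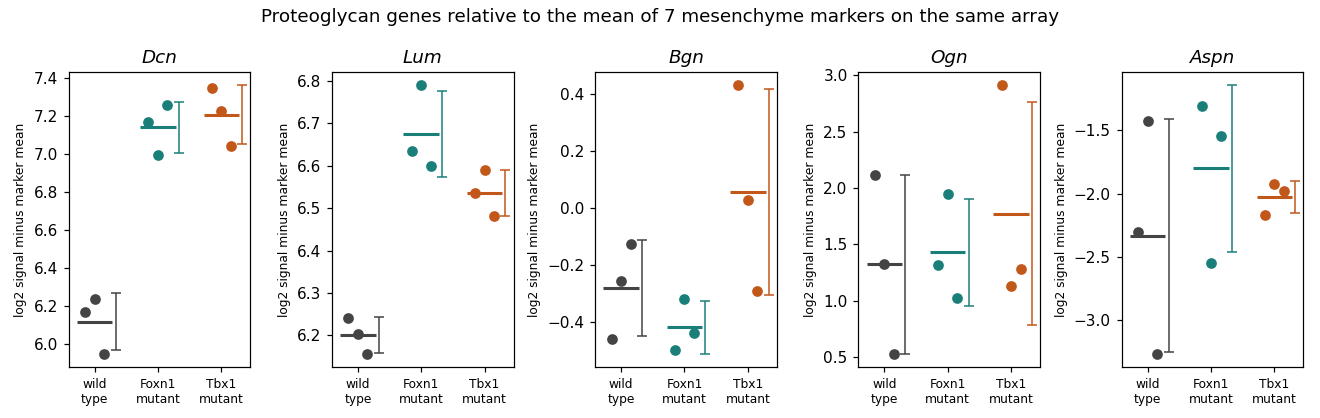
Log2 signal of the 5 genes above background minus the mean log2 signal of 7 mesenchyme markers on the same array (vertical axis, one scale per gene). Points are arrays, thick bars means and brackets ± SD (n = 3). Dcn in wild type is at most 6.24 and in the mutants at least 6.99, while the genotypes overlap for Ogn and Aspn.

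Several of these genes lie in runs of family genes in the mouse genome. Gene order here follows the RefSeq annotation of GRCm38.p6, used for neighbours only. On chromosome 10 the order is Dcn, Lum, Kera and Epyc. Epyc (epiphycan), a cartilage proteoglycan, read 3.98, 4.77 and 6.06 in wild type, 6.32, 7.30 and 6.53 on the Foxn1 arrays and 7.18, 6.13 and 6.61 on the Tbx1 arrays. All 6 mutant arrays of Epyc lay above wild type, though by only 0.07, with differences of 1.77 ± 0.51 and 1.70 ± 0.51 and a limma adjusted p of 1.00 for each. Wild type replicate 1, poor in thymic markers, was under background for Epyc, so the size of these differences is uncertain and no fold is given. The mean of 7 cartilage markers was 4.39 to 4.85 in wild type, 4.47 to 5.21 on the Foxn1 arrays and 4.39 to 4.69 on the Tbx1 arrays. Kera (keratocan), between Lum and Epyc, exceeded background on 2 arrays, and its 3 groups overlapped. The 5 measured genes that flank the run had median differences of 0.12 in the Foxn1 mutants and -0.12 in the Tbx1 mutants. On chromosome 10 Dcn, Lum and Epyc read above wild type on all 6 mutant arrays, as for 1.45% of all clusters, while Kera did so on 0. On chromosome 13 the order is Ecm2, Aspn, Omd and Ogn, with flanking medians of 0.01 and -0.07. In that run Aspn and Ogn were above background on all 9 arrays, Ecm2 on 4 and Omd on 0. On chromosome 1 Optc, Prelp and Fmod were all near or under background, and Bgn lies on the X chromosome, with no other gene of the family among its flanking genes. Of the other family genes 9 had a cluster, of which limma called 0 in any comparison. Apart from Epyc each of these 9 had a mean under the negative controls, with differences from wild type between -0.40 and 0.30.

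**Figure D4:**
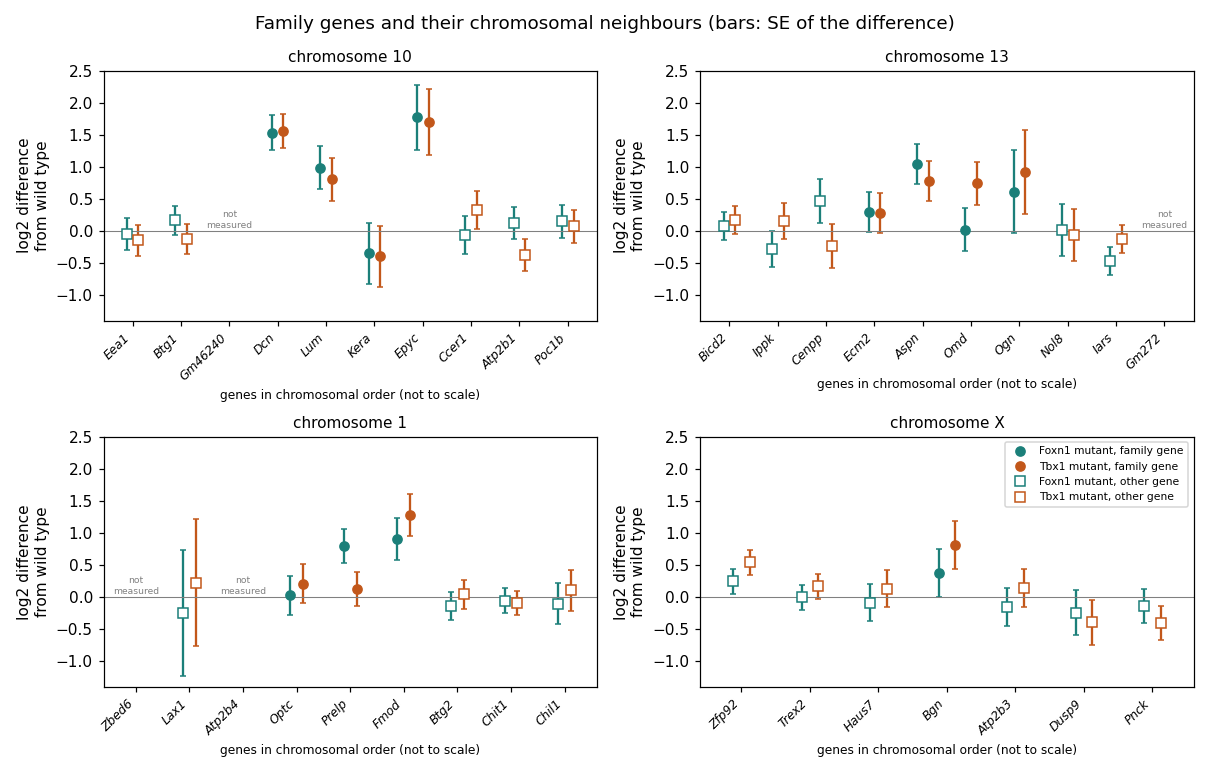
Log2 difference from wild type (vertical axis; bars are ± SE) for family genes (filled circles) and flanking genes (open squares) in chromosomal order, not to scale, on chromosomes 10, 13, 1 and X. Dcn, Lum and Epyc stand above 0 in both mutants on chromosome 10, where the flanking genes have medians of 0.12 and -0.12.

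Promoter windows are shown for Ogn and Aspn, members of one run that are above background on all arrays but differ in pattern, and for Bgn, the relative of decorin on another chromosome. RefSeq windows (GRCm38.p6) of 300 bases, 250 before the annotated start and 50 after, were held for 6 of the 8 genes, and not for Dcn or Lum. All 3 genes lie on the plus strand, at chr13:49607765-49608064 (Ogn), chr13:49544193-49544492 (Aspn) and chrX:73483351-73483650 (Bgn). Capitals mark matches, on either strand, to any of 5 motifs. The TATA box was searched as TATAAA. The CCAAT box was searched by the letters of its name. The E-box was searched as CANNTG, where N is any base. The AP-1 site was searched as TGANTCA. The SMAD element was searched as CAGAC.
Ogn: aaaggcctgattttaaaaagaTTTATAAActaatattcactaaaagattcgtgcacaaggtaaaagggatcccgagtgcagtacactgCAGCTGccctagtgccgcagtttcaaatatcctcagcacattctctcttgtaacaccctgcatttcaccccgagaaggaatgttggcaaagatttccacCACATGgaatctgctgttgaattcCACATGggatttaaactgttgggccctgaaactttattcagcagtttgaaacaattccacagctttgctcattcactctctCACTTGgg
Aspn: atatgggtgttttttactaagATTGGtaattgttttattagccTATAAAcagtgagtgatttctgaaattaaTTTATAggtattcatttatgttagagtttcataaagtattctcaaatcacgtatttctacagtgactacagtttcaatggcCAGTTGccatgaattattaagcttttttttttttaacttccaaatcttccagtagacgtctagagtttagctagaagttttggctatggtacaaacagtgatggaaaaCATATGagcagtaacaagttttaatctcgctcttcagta
Bgn: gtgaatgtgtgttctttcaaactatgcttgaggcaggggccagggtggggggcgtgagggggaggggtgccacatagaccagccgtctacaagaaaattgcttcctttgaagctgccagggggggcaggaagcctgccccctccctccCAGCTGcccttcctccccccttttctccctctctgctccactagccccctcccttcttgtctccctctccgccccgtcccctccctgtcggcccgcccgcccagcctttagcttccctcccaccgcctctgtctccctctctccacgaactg
The Ogn window held 4 E-boxes, at -162, -63, -39 and 42 from the start, and TATAAA on both strands in one overlapping stretch, at -229 and -227. The Aspn window held TATAAA at -207 and, on the other strand, at -178, a reversed CCAAT box at -229 and E-boxes at -97 and 11. The Bgn window held 1 E-box, at -102. GC content was 42.3% for Ogn, 31.0% for Aspn and 63.7% for Bgn. Among 32851 RefSeq windows of this length, 72.31% held an E-box, 13.62% a TATA box, 37.41% a CCAAT box, 7.81% an AP-1 site and 49.59% a SMAD element. None of the 6 windows held the AP-1 letters. Each match describes letters in the window and is no evidence of binding.

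The genes whose pattern over the 9 arrays lay nearest to Dcn were found among 11501 genes above the negative-control median, by the root mean square (RMS) difference after each gene was centred on its own mean. Dcn itself varied with an RMS of 0.78 about its mean. The nearest were Slitrk4 (0.15), a membrane protein gene with leucine-rich repeats known from neurons, Lrrc17 (0.25), a secreted leucine-rich repeat protein gene, and Bicc1 (0.27), an RNA-binding protein gene. Col3a1 (0.27), a fibrillar collagen, Atp1b2 (0.33), a subunit of the sodium pump, and Tbx18 (0.33), a T-box gene, followed. Slitrk4 read 7.09, 7.11 and 7.26 in wild type, 8.70, 9.53 and 8.26 on the Foxn1 arrays and 9.01, 8.59 and 8.84 on the Tbx1 arrays. Its groups did not overlap, and its differences were 1.68 ± 0.31 and 1.66 ± 0.31 (SE; limma adjusted p 1.00 and 0.268). Lum ranked 8 in nearness to Dcn, Epyc 100, Bgn 130, Aspn 240 and Ogn 1526. Without the 2 arrays poor in thymic markers Slitrk4 was again nearest (0.14), while Lum ranked 23, Epyc 32, Bgn 737, Aspn 841 and Ogn 1370. The average of the 8 genes lay nearest to Marveld1 (0.19), Mospd2 (0.19), Crtap (0.19), Prickle2 (0.20), Sdc1 (0.21) and Akap12 (0.21), its own RMS being 0.48. All arrays share the 3 genotype groups, so likeness here describes these 9 arrays only.

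**Figure D5:**
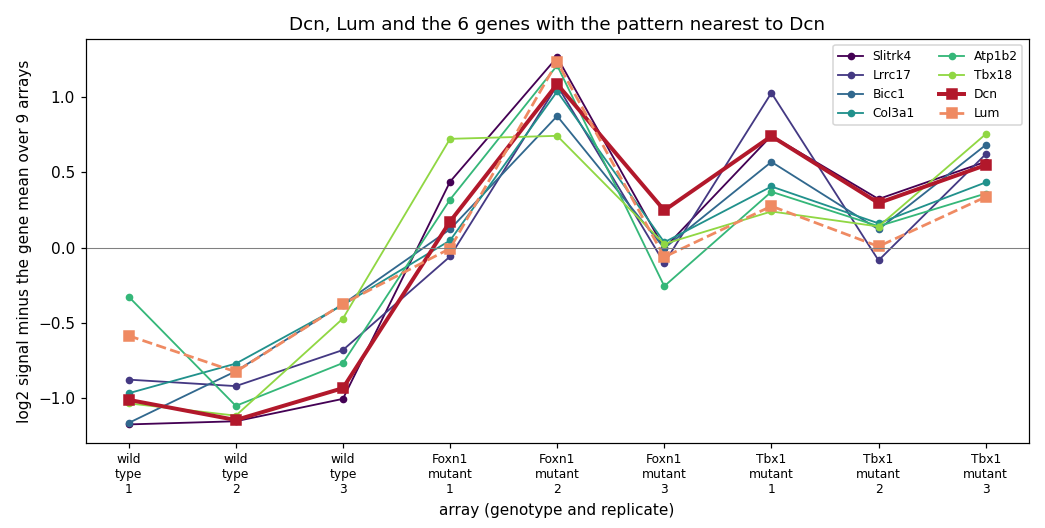
Log2 signal minus the gene's mean over 9 arrays (vertical axis) for Dcn, Lum and the 6 genes with the smallest RMS difference from Dcn, on each array (horizontal axis). Lines join the values of a gene and imply no order of the arrays. Slitrk4, at an RMS difference of 0.15, lies closest to Dcn, and Dcn is low on the 3 wild type arrays.

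The fibrils these proteins bind are built of fibrillar collagens. Of 10 fibrillar collagen genes measured, 8 were higher in the Foxn1 mutants (median 0.39) and 7 in the Tbx1 mutants (median 0.59), and limma called 0 of 10 in either. Col3a1 read 10.53, 10.72 and 11.11 in wild type, 11.54, 12.53 and 11.53 on the Foxn1 arrays and 11.90, 11.66 and 11.93 on the Tbx1 arrays, without overlap. Its differences were 1.08 ± 0.30 and 1.04 ± 0.30. Col1a1, Col1a2 and Col5a1 cleared wild type in the Tbx1 mutants (1.43, 1.26 and 0.84) and overlapped it in the Foxn1 mutants (0.86, 0.88 and 0.82). They read 13.40, 9.42 and 9.71 on Foxn1 mutant replicate 2, and at most 12.14, 8.09 and 8.37 on the other Foxn1 arrays. Of 15 genes of collagen cross-linking and assembly, 11 were higher in the Foxn1 mutants and 14 in the Tbx1 mutants, with medians of 0.37 and 0.47 and 0 called. Loxl1, a lysyl oxidase relative, was above wild type on all 6 mutant arrays, with differences of 1.36 ± 0.57 and 1.76 ± 0.57. It was the 1 gene of these 15 to be so, against 1.45% of clusters. It read 10.42 on Foxn1 mutant replicate 2 and 8.60 and 8.56 on the other Foxn1 arrays. Plod1, a lysyl hydroxylase, was 0.88 ± 0.23 higher in the Foxn1 mutants without overlap and 0.12 in the Tbx1 mutants.

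Enzymes that build the sugar chains had median differences nearer to 0. Of 6 genes that start the chain, 4 and 3 were higher in the Foxn1 and Tbx1 mutants, with medians of 0.13 and -0.08, and Xylt1, which adds the first sugar, was -0.63 ± 0.29 and -0.36 ± 0.29. For the chondroitin and dermatan sulfate chains carried by decorin and biglycan, 12 and 13 of 15 enzymes were higher, with medians of 0.18 and 0.28. Dse and Dsel, the epimerases that turn chondroitin into dermatan sulfate, stood at 0.77 ± 0.34 and 0.58 ± 0.27 in the Foxn1 mutants and at 0.54 and 0.59 in the Tbx1 mutants. For keratan sulfate, 7 of 10 were higher in each, with medians of 0.12 and 0.08. B4galt1, a galactosyltransferase, read 8.73 to 8.80 in the Tbx1 mutants, above wild type (7.61 to 7.98) and the Foxn1 mutants (7.71 to 8.29). None of these enzymes was called by limma.

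A list of 13 genes held proteases that cut the family or its collagen partners, and Pcolce, which is no protease itself. Of these 13, 9 and 10 were higher, with medians of 0.53 in each mutant and 0 called. Pcolce, which speeds removal of the collagen propeptide, was 0.64 ± 0.41 higher in the Foxn1 mutants and 1.16 ± 0.41 in the Tbx1 mutants, where its arrays lay above wild type. Mmp14, a membrane-bound collagenase, was 0.63 ± 0.31 and 0.47 ± 0.31 higher with overlapping arrays. Of 12 receptors, 6 were higher in each mutant (medians -0.04 and 0.02). Itga2, the collagen receptor subunit, stood at -0.65 ± 0.30 and -0.44 ± 0.30, and Met, a kinase to which decorin binds, at 0.84 ± 0.50 and -0.09 ± 0.50. Met read 6.1, 8.1 and 6.2 on the Foxn1 arrays and 5.5 to 6.4 in wild type. Foxn1 mutant replicate 2 thus set much of its Foxn1 value, and the groups overlapped. Of 15 TGF-β and BMP ligands, receptors and carriers, 10 and 8 were higher (medians 0.37 and 0.03). Ltbp4, which anchors latent TGF-β in matrix, read 5.93 to 7.06 in wild type, 7.16 to 8.33 on the Foxn1 arrays and 7.33 to 7.96 on the Tbx1 arrays, and so cleared wild type on all 6 arrays. Of 20 other matrix proteoglycans, 9 and 13 were higher (medians -0.15 and 0.25), and limma called 0. Sdc1, a cell-surface proteoglycan, was above wild type on all 6 mutant arrays (0.58 ± 0.24 and 0.49 ± 0.24). Srgn, the proteoglycan of blood cell granules, was -1.50 ± 0.56 in the Foxn1 mutants, where all 3 arrays were below wild type as for 3.43% of clusters. On the 2 arrays poor in leukocyte markers Srgn read 6.46 (Foxn1 mutant replicate 2), the lowest of the 9, and 9.92 (wild type replicate 1), the highest. These counts, over the measured genes of each list, are read against the 52.4% and 52.2% of all clusters above 0. Arrays wholly above wild type are read against 4.86% (Foxn1 mutants), 5.18% (Tbx1 mutants) and 1.45% (all 6 mutant arrays) of clusters. Ltbp4 and Sdc1 were each the 1 gene of their list above wild type on all 6. Genes of these lists were named for a low p in the Foxn1 comparison, so their separation is partly set by that choice.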

How the data were processed

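Total RNA of 9 thymic lobe samples was measured on Affymetrix Clariom S arrays. The deposited table holds log2 signal per feature, made by the authors with software and a normalization not given in the sources used here, and likewise the genome build. Of 28846 features 6640 controls were left out, leaving 22206 transcript clusters with values of 1.47 to 19.92. Gene symbols came from the platform annotation: 19572 clusters have 1 symbol and 2634 none. The 8 genes and all gene lists were chosen with earlier results of these data known.

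Differences were fitted with limma 3.58.1 (R 4.3.3) on all clusters and arrays, with a mean per genotype, eBayes, two-sided tests and Benjamini-Hochberg adjustment over 22206 clusters at 0.05, and the code was tested on simulated data. Tables and plots used Python 3.11.15 and matplotlib 3.10.9. Array signals are limited in precision by their number: an exact test of 3 arrays against 3 reaches no p below 0.1. Named were the 8 genes, the other family genes, up to 4 genes per list of lowest unadjusted p in the Foxn1 comparison, and the 6 clusters nearest to Dcn or to the average of the 8. Beyond that rule, Uty, single markers of cell type lists, the targeted genes and flanking genes were named after their values were seen. Alternatives were quantile normalization, median centring, a filter at the negative-control median, a robust intensity trend, weighting of arrays, a fixed or a random block for date code, fits of 2 genotypes, leaving out each array, and leaving out the 2 arrays poor in thymic markers. Replicates are numbered in accession order, so the numbers pair no samples. Dcn and Lum relative to mesenchyme markers were added after their values were seen. Sequences were copied from RefSeq.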

Additional observations from a re-analysis of the deposited data

Results flagged for a closer look

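Igf1r, a receptor kinase to which decorin binds, had a log2 difference of -0.59 ± 0.22 (SE) for Foxn1 minus Tbx1 mutants, and every Foxn1 mutant array lay below the wild type mean and every Tbx1 mutant array above it. Wild type arrays read 9.22, 9.02 and 9.62, Foxn1 mutant arrays 8.84, 9.09 and 8.89, and Tbx1 mutant arrays 9.45, 9.81 and 9.34. The limma adjusted p of this difference was 1.00.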

How the results depend on the processing

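None of the 8 genes was called by limma under any alternative run. Dcn differed by 1.25 to 1.64 in the Foxn1 mutants (1.24 to 1.70 leaving out single arrays; lowest adjusted p 0.408) and by 1.46 to 1.62 in the Tbx1 mutants (1.45 to 1.68; lowest adjusted p 0.0575). Directions that turned were small or rested on single arrays, and the cause was not tested. Between the mutants Dcn was 0.18 with the date code as a fixed block (-0.32 to 0.14 leaving out single arrays), and Ogn was 0.11 with that block (-0.93 to 0.30). Lum between the mutants was -0.049 with array weights and -0.24 without the 2 arrays poor in thymic markers (-0.24 to 0.41). Without those 2 arrays Bgn in the Foxn1 mutants was -0.15 (-0.044 to 0.59) and Prelp in the Tbx1 mutants -0.073 (-0.073 to 0.30), and with array weights Prelp was -0.016. Ogn in the Foxn1 mutants ranged from -0.0099 to 1.01 leaving out single arrays. Omd there was -0.0098 after quantile normalization (-0.20 to 0.24).

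Clusters called over the whole array were few and unstable. In the Foxn1 comparison 0 became 1 when only the 2 genotypes were fitted, and 0 to 3 leaving out single arrays. In the Tbx1 comparison 3 became 17 with array weights, 1 with the fixed block, 0 in the fit of 2 genotypes, and 0 to 20 leaving out single arrays, the most without wild type replicate 2. Between the mutants 0 became 4 with array weights, 2 in the fit of 2 genotypes and 2 without the 2 arrays, and 0 to 3 leaving out single arrays. The F test's 2 calls became 1 with the fixed block and 0 to 3 leaving out single arrays. Leaving out clusters under the negative-control median removed Fmod, Omd and Prelp. Another cluster of the same symbol could not be tried, since each gene has 1. No scaling moved the median of all clusters by 0.1. No paired analysis was possible because the replicate numbers follow accession order; the date codes that genotypes share were fitted as a block instead.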
